A study of Mus musculus with 576 samples.

Results

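The genes described here are the cyclins and inhibitors that set the activity of the cyclin-dependent kinases (Cdks) in G1, the phase before DNA synthesis. They were taken as a list of gene symbols, and all 10 were found among the 36658 genes of the count tables. The D-type cyclins are Ccnd1, Ccnd2 and Ccnd3, the E-type cyclins are Ccne1 and Ccne2, the Cip/Kip inhibitors are Cdkn1a, Cdkn1b and Cdkn1c, and the Ink4 inhibitors are Cdkn2c and Cdkn2d. The values come from Smart-seq2, a plate method that makes 1 full-length cDNA library per sorted cell, applied here to GFP+ cells sorted from dorsal pancreas of E12.5 mouse embryos. In Nkx2.5-Cre;mTmG and Nkx3.2-Cre;mTmG embryos (Nkx2.5 and Nkx3.2 lines), Cre turns a membrane reporter from Tomato to GFP wherever the driver was active, and the descendants of such cells keep the GFP, whereas Prox1-GFP embryos (Prox1 line) carry a reporter of Prox1 itself. Each of the 3 lines filled 2 plates of 96 wells (6A and 6B for Nkx2.5, 7A and 7B for Nkx3.2, 8A and 8B for Prox1).

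A D-type cyclin activates Cdk4 and Cdk6 in response to growth signals, and an E-type cyclin then activates Cdk2 at the entry into S phase. Cip/Kip proteins bind cyclin-Cdk complexes, above all those of Cdk2, whereas Ink4 proteins bind Cdk4 and Cdk6 and keep D-type cyclins away. In the developing pancreas, progenitors of the epithelium divide, while cells that turn on Neurog3 leave the cycle and become endocrine. Most of these proteins are also controlled by degradation, which RNA does not show.

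No embryo or litter is named in the labels. A line was therefore treated as 1 sample, and no p-value was computed from its cells. The spread given is that between the plates of a line, and intervals are 95% intervals. Those of levels and ratios cover the counting error of reads only. The method attaches no molecular identifiers and PCR copies are counted, so these intervals are too narrow for molecules. Of 576 cells, 549 passed the filters, with 224814 to 1512736 counts per cell (median 901156). Cells were placed in states by how many markers of each list they held at 10 CPM (counts scaled to a total of 1000000) or more. Nkx2.5 embryos gave 89 mesenchymal cells on plate 6A and 80 on plate 6B, with 3 mesothelial cells. Nkx3.2 embryos gave 170 mesenchymal and 21 mesothelial cells, and Prox1 embryos 77 mesenchymal, 22 endocrine and 85 other epithelial cells. Another 2 cells had markers of a further cell type and were left out. Since the same markers assigned the states, their counts describe the groups and do not test the names: endocrine cells held 4 to 16 of 18 endocrine markers (median 13), the other epithelial cells at most 2, and mesenchymal cells of any line at most 1 of 8 epithelial markers. Library numbers of the Prox1 line form a series of their own, and a batch of that kind cannot be told apart from the line. Plate cannot be told apart from line in any comparison between lines, since each line had its own plates.

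The stretch of regulatory sequence below is shown because Cdkn1a is the member that differed most between epithelial and mesenchymal cells. RefSeq gives start windows for 6 of the 10 members (9 windows on GRCm38.p6), and the 250 bases before each start were searched on both strands for words of the kind bound by p53 (a CATG, any 6 bases, and another CATG) and by E2F factors (TTCCCGC, or TTGGCGC, or TTCGCGC, or TTGCCGC). These words were chosen after the windows had been read. Ccnd1, Ccnd2, Ccne2 and Cdkn1c have no entry. The p53-type word was present before the first Cdkn1a start, 48 to 35 bases upstream, and is printed in capitals within chr17:29090901-29090974 on the plus strand.
Cdkn1a: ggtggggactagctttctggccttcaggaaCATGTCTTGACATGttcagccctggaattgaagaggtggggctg
Of 32851 windows of the same length over all genes, 0.490% hold that word. Among the 9 windows of the members only that of the first Cdkn1a start holds it, and that of the second Cdkn1a start does not. An E2F-type word was present in 1 window of the members, that of the second Cdkn2c start, 25 to 19 bases upstream, printed in capitals within chr4:109666757-109666811 on the minus strand, and 7.89% of all windows hold one.
Cdkn2c: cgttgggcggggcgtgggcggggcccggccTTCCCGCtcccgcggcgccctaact
These are matches of letters only, and binding was not measured.

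The D-type cyclins had unlike distributions over the states. Ccnd1, the member that growth factor signals induce most directly, was highest in the non-endocrine epithelium, at 237 CPM on plate 8A and 295 on plate 8B. Mesenchymal cells stood at 87.8 and 85 CPM on the Nkx2.5 plates, 93.6 and 96.02 on the Nkx3.2 plates, and 48.04 and 74.1 on the Prox1 plates. The 21 mesothelial cells of the Nkx3.2 line were at 27.7 CPM (74.3 in 3 cells of plate 7A and 16.2 in 18 cells of plate 7B), and endocrine cells at 4.12 and 5.47 on the 2 plates. No epithelial plate overlapped a mesenchymal one, and no mesenchymal plate overlapped an endocrine one. Ccnd1 was also patchy within a state: it was detected (at least 1 count) in 81.2% of other epithelial cells (95% exact binomial interval 71.2 to 88.8%), where single cells ran from 0 to 1071 CPM with a median of 191.9, and in 46.2%, 65.9% and 37.7% of Nkx2.5, Nkx3.2 and Prox1 mesenchymal cells.

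Ccnd2 was detected in at least 97.4% of mesenchymal cells of each line, at 719 to 961 CPM over the 6 plates, and in 88.2% of other epithelial cells, at 595 and 468 CPM. Mesothelial cells were at 239.5 CPM, and endocrine cells at 75.96 CPM on plate 8A and 319.6 on plate 8B, so that the mesothelial level lay between the endocrine plates. Ccnd3 was higher in mesenchyme than in epithelium, with 616 to 1102 CPM on the mesenchymal plates, 827 in mesothelial cells, 305 and 238 in other epithelial cells, and 191.6 and 50.4 in endocrine cells. Nkx3.2 mesothelial levels of Ccnd3 lay within the range of the mesenchymal plates of the 3 lines, and the other neighbours in this order did not overlap. On shared plates, mesothelial cells were lower than mesenchymal ones in the Nkx3.2 line (745 against 1049.6 CPM on 7A, 847 against 1102 on 7B). They were higher in the Nkx2.5 line (1177 against 739.8 on 6A in 1 cell, 838 against 616 on 6B in 2 cells). Which D cyclin was highest per length could not be settled, because the annotated Ccnd3 transcript is 2113 bases long in its longest coding form and 8775 bases over merged exons: in Nkx3.2 mesenchyme Ccnd3 stood at 961 TPM (CPM corrected for length) by the first length and 327 by the second, against 245 and 232 TPM for Ccnd2. Ccnd1, at 47.9 and 53.8 TPM, was the lowest of the 3 there by both lengths.

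**Figure D1:**
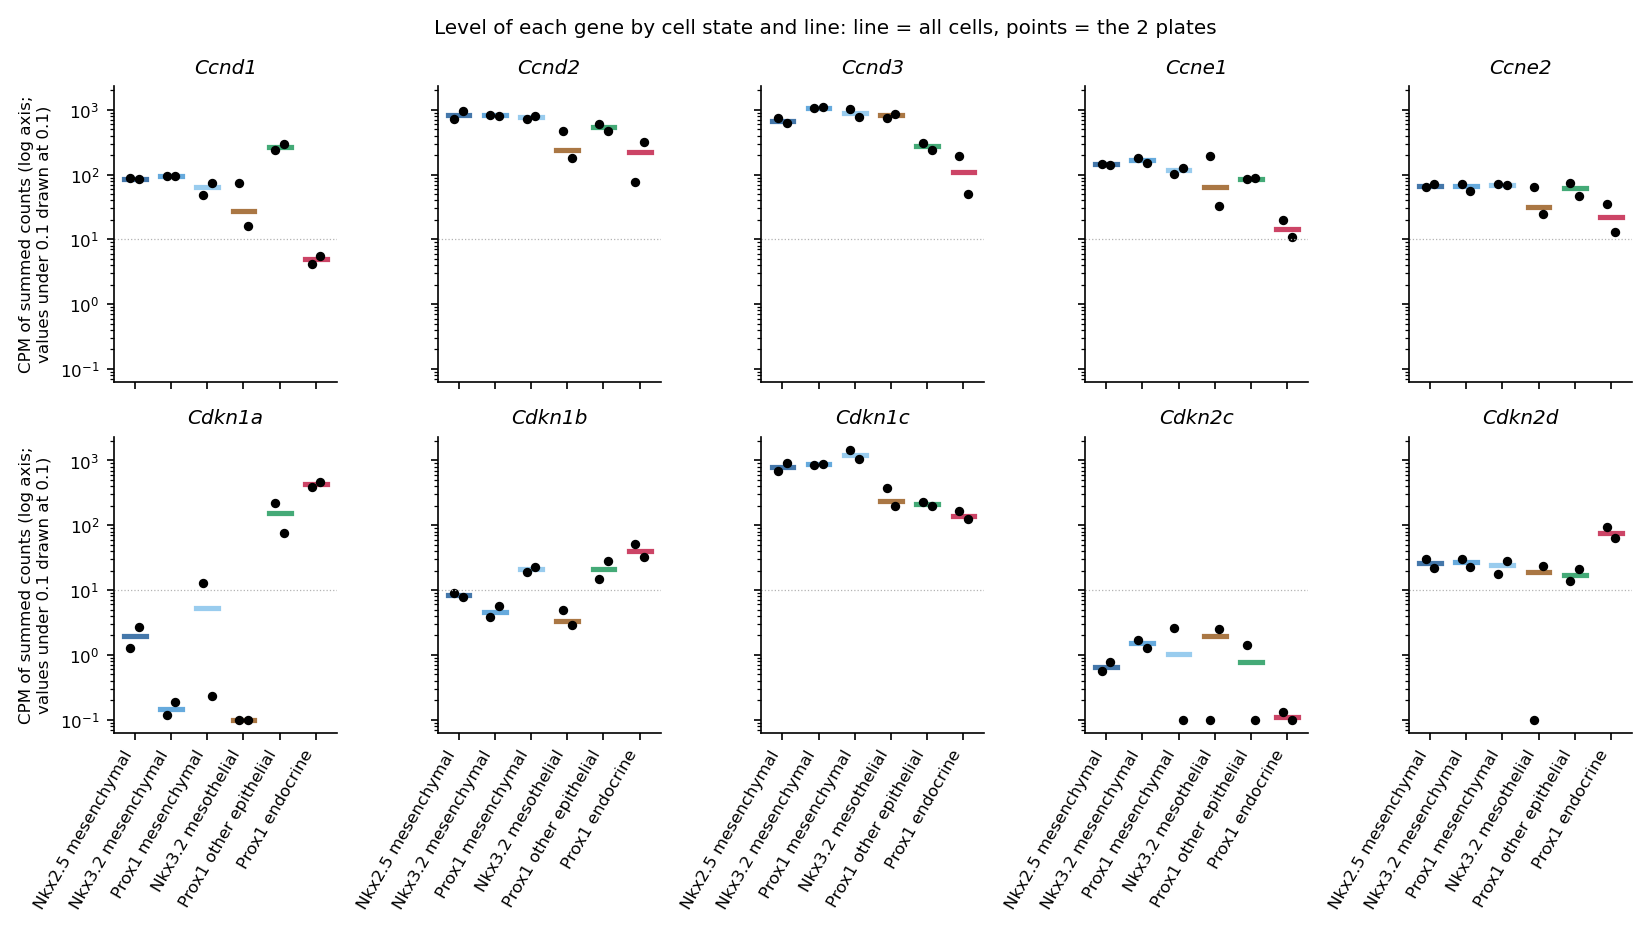
Level of each gene (CPM of counts summed over cells, log axis) in 6 groups of cells; the coloured line is the group and the points are its plates. Ccnd1 and Cdkn1a stand highest in the Prox1 epithelium, with Ccnd1 at 264 CPM in other epithelial and 4.92 CPM in endocrine cells, and Cdkn1c stands highest in the mesenchyme of the 3 lines at 795 to 1201 CPM.

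The E-type cyclins varied widely from cell to cell. Ccne1 was detected in 56.8%, 63.5% and 53.2% of Nkx2.5, Nkx3.2 and Prox1 mesenchymal cells, at 100.6 to 178.9 CPM over the 6 plates, and the highest cell reached 1204 CPM. Other epithelial cells stood at 85.3 and 88.4 CPM, Nkx3.2 mesothelial cells at 64.7 and endocrine cells at 19.95 and 10.9. Every mesenchymal plate lay above both other epithelial plates for Ccne1. Ccne2 did not separate mesenchyme from other epithelium, with 54.8 to 72.6 CPM on the mesenchymal plates and 73.6 and 46.01 in other epithelial cells, and it stood at 32.1 in Nkx3.2 mesothelial cells. The mesothelial values came from unlike plates: Ccne1 was at 194.4 CPM in the 3 cells of plate 7A, above every mesenchymal plate, and at 32.5 in the 18 of plate 7B, and Ccne2 at 64.2, within the mesenchymal range, and 24.2. Endocrine Ccne2, at 35.1 and 13.1 CPM, overlapped the mesothelial level. Per length, by the longest coding transcript, Ccne1 exceeded Ccne2 in each mesenchymal group (158.8 against 41.3 TPM in the Nkx3.2 line) and in other epithelial cells (78.8 against 36.8), whereas endocrine cells had 13.2 and 13.3 TPM.

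Among the Cip/Kip genes, Cdkn1a and Cdkn1c divided the tissue. Cdkn1c, an imprinted gene that restrains growth in the embryo, was detected in 97.6% to 100% of mesenchymal cells, at 677 and 928 CPM on the Nkx2.5 plates, 864 and 889 on the Nkx3.2 plates, and 1439 and 1040.5 on the Prox1 plates. It was at 235 CPM in mesothelial cells, at 227 and 202 in other epithelial cells, and at 166.1 and 123.8 in endocrine cells. All 6 mesenchymal plates lay above every other group, while mesothelial and other epithelial levels did not differ beyond the spread of the plates. Cdkn1a, a direct p53 target that arrests the cycle, was low in mesenchyme. On the 6 mesenchymal plates it ran from 0.118 to 12.9 CPM. A single cell held 87.02% of its single-cell CPM summed over the Prox1 mesenchyme, and another 56.7% in the Nkx2.5 mesenchyme. Other epithelial cells had 218 CPM on plate 8A and 76.9 on plate 8B, and endocrine cells 395 and 469.6. With each cell thinned to 100000 counts to equalise depth, Cdkn1a was detected in 74.1% of other epithelial and 81.8% of endocrine cells against 1.76% to 3.90% of mesenchymal cells of the 3 lines. In the 21 mesothelial cells of the Nkx3.2 line no cell reached 1 count, which allows a share of cells with a count of up to 14.3% if 3 cells are taken as the limit, or 16.1% by the exact binomial interval. Cdkn1b, the inhibitor that is usually high in resting cells, was low in all states at the RNA level, with 3.85 to 8.87 CPM on the Nkx2.5 and Nkx3.2 mesenchymal plates, 18.9 and 23.01 on the Prox1 mesenchymal plates, 15 and 28.3 in other epithelial cells and 51.7 and 32.5 in endocrine cells. The mesenchymal cells of the Prox1 line were thus above those of the other lines on both plates for Cdkn1b, and library batch cannot be told apart from the line here.

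The Ink4 genes were sparse. Cdkn2d was detected in 22.5%, 40.6% and 22.1% of Nkx2.5, Nkx3.2 and Prox1 mesenchymal cells, at 17.6 to 30.5 CPM over the plates, in 28.2% of other epithelial cells, at 13.9 and 20.8 CPM, and in 59.1% of endocrine cells (36.4 to 79.3%), at 93.6 and 63.2 CPM. Both endocrine plates lay above all others. Cdkn2c was detected in 1.78% to 5.88% of mesenchymal cells, 3.53% of other epithelial and 9.09% of endocrine cells, and its summed level was below 2 CPM in each of these groups. At 10 counts in place of 1, no endocrine cell held it.

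Comparing the 5 inhibitors per length within each cell, by the longest coding transcript, showed how the balance moved between states. Cdkn1c was the highest in 95.9% of Nkx2.5 mesenchymal cells (95% interval 91.7 to 98.3%), in all 170 of the Nkx3.2 line, in all 77 of the Prox1 line and in all 21 mesothelial cells of the Nkx3.2 line. Cdkn1a was the highest in none of these. In other epithelial cells Cdkn1c led in 54 of 85 and Cdkn1a in 27, and in endocrine cells Cdkn1a led in 13 of 22 and Cdkn1c in 7. With merged exon lengths Cdkn1a led in 20 of 85 and 10 of 22, and no lead passed to Cdkn1a in the mesenchyme. Neither E cyclin was detected in 30% to 41.6% of mesenchymal cells.

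**Figure D2:**
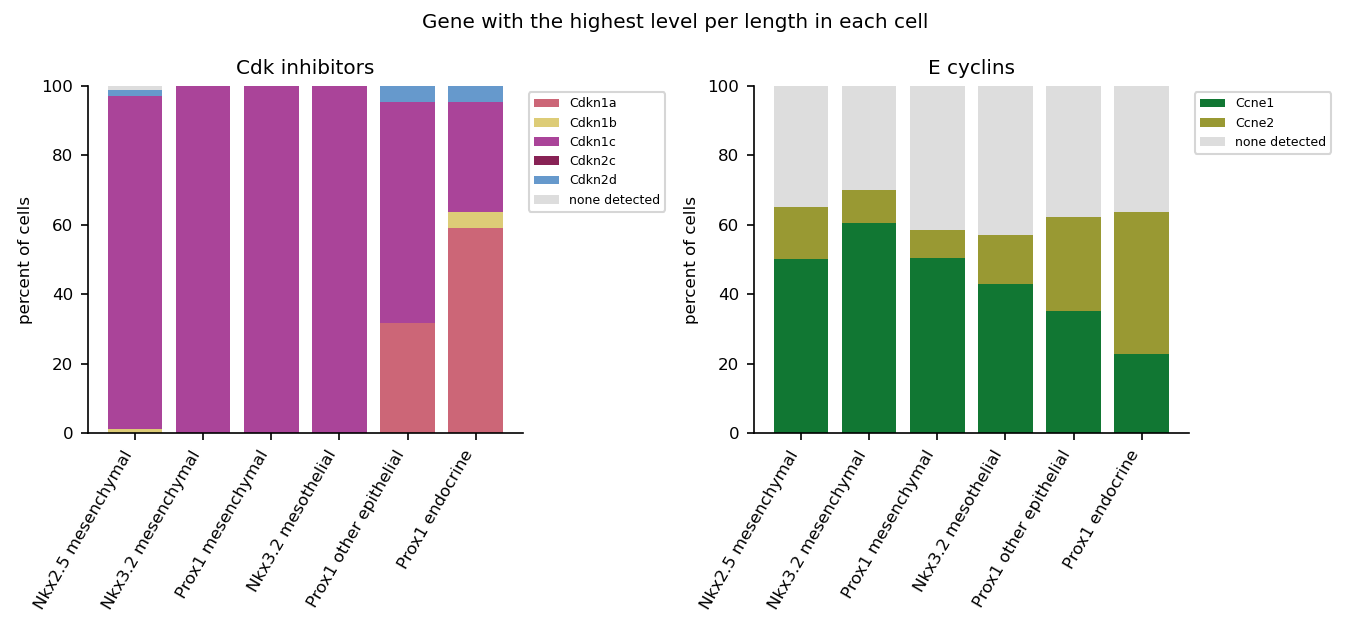
Percent of cells (vertical axis, from 0) in which each Cdk inhibitor (left) or E cyclin (right) had the highest level per length of longest coding transcript, for 6 groups of cells. Cdkn1c led in 95.9% to 100% of mesenchymal cells by line, and Cdkn1a led in 31.8% of other epithelial and 59.1% of endocrine cells.

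Endocrine cells were compared with the other epithelial cells of the same plates to ask how the G1 genes differ between endocrine differentiation and the dividing epithelium. All 5 cyclins were lower and 2 inhibitors were higher in endocrine cells. A difference was counted when it was at least 2-fold with at least 10 CPM on the higher side. This held for 7 members, and over the 11054 genes tested 22.7% passed as lower and 19.3% as higher. Ccnd1 was 53.6-fold lower, with a ratio of endocrine to other epithelial CPM of 0.0187 (95% counting interval 0.0150 to 0.0229) and plate ratios of 0.0174 and 0.0185. It was detected in 4 of 22 endocrine against 69 of 85 other epithelial cells, and 1 of those 4 cells held 57.9% of its single-cell CPM summed over endocrine cells. Ccne1 was 5.92-fold lower (plates 0.234 and 0.124), Ccne2 2.75-fold (0.477 and 0.285), Ccnd3 2.53-fold (0.628 and 0.212) and Ccnd2 2.44-fold (0.128 and 0.683). The plates gave the same direction for each of the 5, but Ccnd3 passed 2-fold on plate 8B alone and Ccnd2 on plate 8A alone.

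Cdkn2d was 4.43-fold higher in endocrine cells (4.10 to 4.79), with plate ratios of 6.74 and 3.04. Cdkn1a was 2.87-fold higher (2.79 to 2.95), with 1.81 on plate 8A and 6.11 on plate 8B, so that without plate 8B it did not pass. The inhibitors that did not pass were Cdkn1b, with a ratio of 1.91 (3.45 and 1.15 by plate), and Cdkn1c, with 0.655 (0.732 and 0.613). Cdkn2c was below the level needed. Only 2 of 22 endocrine cells were Top2a-high (at least 100 CPM), against 37 of 85 other epithelial cells. With Top2a-low cells alone on both sides (18 and 44 cells), Ccnd1, Ccnd2 and Ccnd3 were still lower and Cdkn2d higher, Cdkn1b was higher as well, and Cdkn1a, Ccne1 and Ccne2 no longer passed. Across the 9 members above the level needed, the median log2 ratio was -1.29, beside -0.09 over all genes tested.

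**Figure D3:**
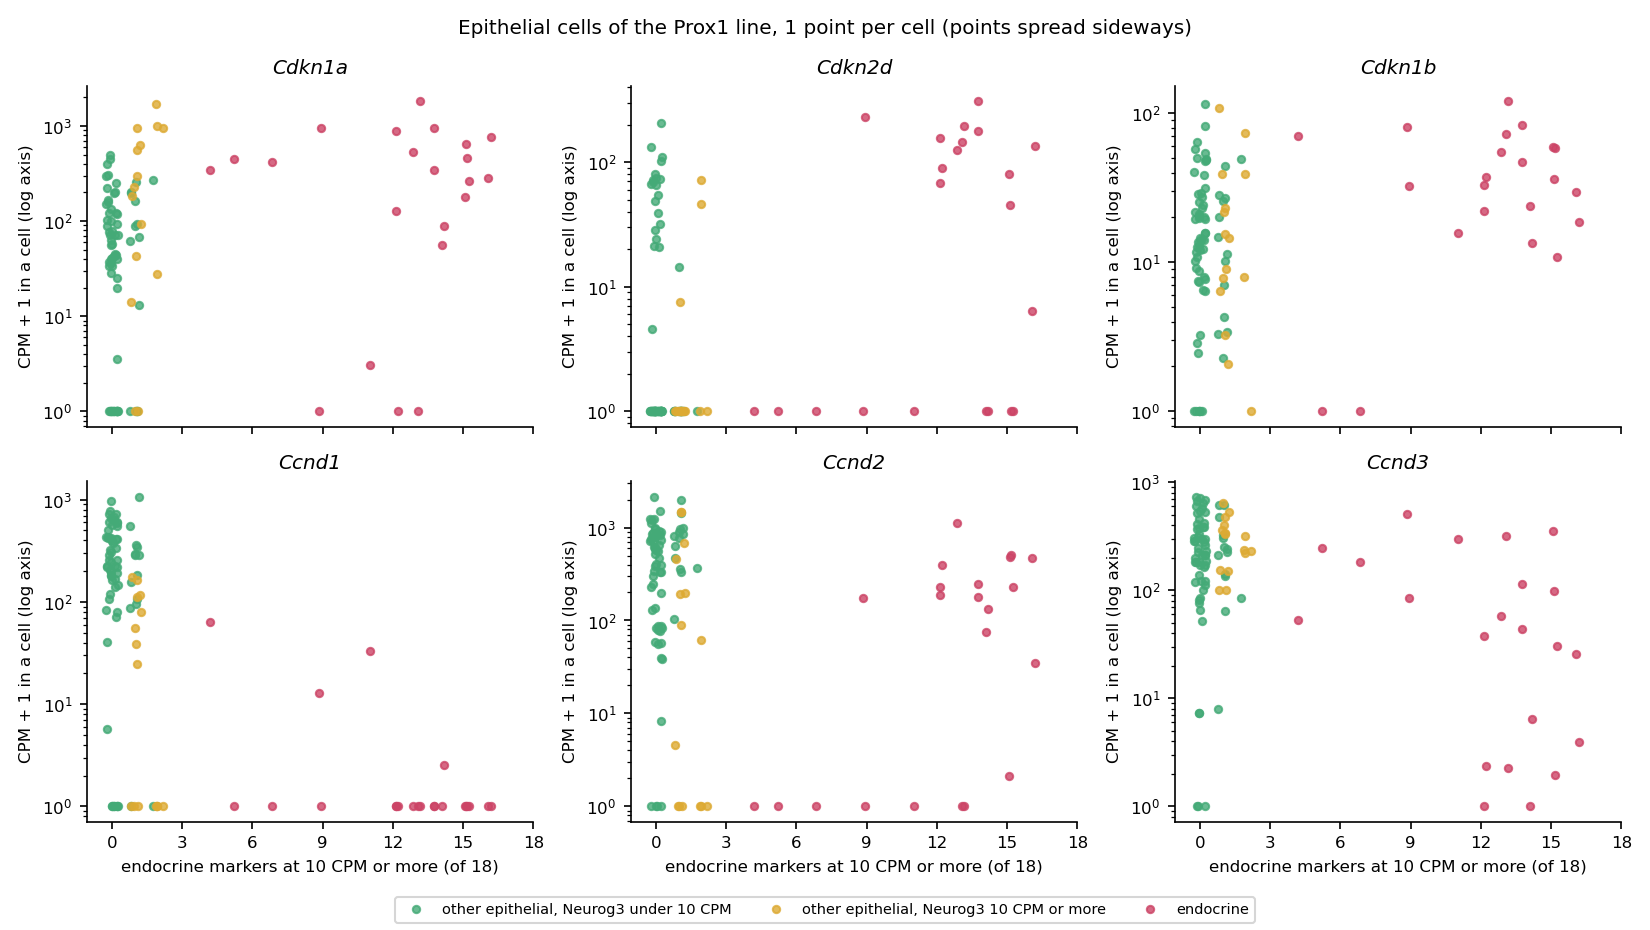
CPM + 1 in single epithelial cells of the Prox1 line (log axis) against the number of endocrine markers at 10 CPM or more, for 6 genes; colours separate endocrine cells, and other epithelial cells with Neurog3 at 10 CPM or more or below it. Ccnd1 lies at 0 in 18 of 22 endocrine cells, while Cdkn1a was detected in 19 of them.

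The other epithelial cells included 15 with Neurog3 at 10 CPM or more, an early endocrine factor, together with at most 1 further endocrine marker. This division was chosen after values had been seen, and Neurog3 is itself on the endocrine list. Ccnd1 was at 57.9 CPM in these 15 cells and at 303 CPM in the other 70, with 67.3 against 283 on plate 8A and 33.2 against 323 on plate 8B. It was therefore lower in the Neurog3 cells on both plates. Cdkn1a was at 449.7 CPM against 96.3, but the gap was that of plate 8A alone, with 592 CPM in 11 cells against 115.3 in 38. On plate 8B the 4 Neurog3 cells had 77.3 CPM and the other 32 cells 76.9. Cdkn2d, the member with the clearest endocrine excess, was at 6.84 CPM in the 15 cells and 19.03 CPM in the others, and reached 47.7 CPM in the 8 endocrine cells with Neurog3 and 93.6 CPM in the 14 without. Across the 85 other epithelial cells Ccnd1 and Cdkn1a had a Spearman correlation of -0.33, given as a description since the cells share plates and depth.

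A list of 54 further genes of the G1 network was read beside the members in the same comparison. In endocrine cells 6 passed higher and 21 passed lower. All 4 Cdk partners were lower, among them Cdk4, the partner of the D cyclins, at 544 against 1187 CPM, and Cdk2, that of the E cyclins, at 25.3 against 147.7. The largest ratios of the list were those of Mycn (no count in endocrine cells against 87.9 CPM, at least 536-fold lower taking 3 counts as the floor), Myc (1.04 against 249 CPM, 239-fold lower), Gadd45a (144.7 against 5.31 CPM, 27.2-fold higher) and Rbl1 (3.39 against 40.8 CPM, 12.04-fold lower). Gadd45a is a p53 target, as Cdkn1a is. Of the 10 genes listed as p53 and its targets 9 were tested, and 4 passed higher, 1 lower and the rest neither. Over all genes tested 19.3% passed as higher and 22.7% as lower. The other targets of that group that passed higher were Sesn2, Zmat3 and Btg2, while Trp53 itself was lower (77.2 against 306 CPM). These 4 genes were picked out after their values had been seen. Of the 18 genes of a G1/S list (replication licensing and DNA synthesis), 15 passed lower and none higher, and all 14 genes of a G2/M list passed lower.

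Other epithelial cells were compared with the mesenchymal cells of the same line to ask which G1 genes separate the tissue layers. There 4 members passed 2-fold, while 28.1% of 10789 genes did (14.5% higher and 13.6% lower). Ccnd1 was 4.15-fold higher in epithelium (4.93 and 3.99 by plate) and Cdkn1a 28.7-fold higher (16.96 and 326). Cdkn1c was 5.58-fold lower (ratios of 0.158 and 0.194) and Ccnd3 3.21-fold lower (0.3 and 0.303). Every one of these passed 2-fold on both plates, although the size for Cdkn1a on plate 8A turns on the 1 mesenchymal cell that held most of its counts. Ccnd2, Ccne1, Ccne2, Cdkn1b and Cdkn2d had ratios of 0.703 to 0.989, and Cdkn2c was below the level needed. Of the 54 network genes 3 were higher and 3 lower, and the 4 largest ratios were those of Mycl (12.6 against 2.66 CPM), Myc (249 against 67.2 CPM), Btg2 (72.6 against 22.8 CPM) and Phlda3 (15.1 against 41.1 CPM). Epithelial cells had more genes detected than mesenchymal ones (median 7552 against 6324) at a like depth, and the part of that in these ratios was not tested.

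Mesothelial cells, the outer covering of the organ, were compared with mesenchymal cells of the same 2 Cre lines. In the 24 mesothelial cells 5 members were lower and none higher, while 13.2% of 10621 genes were lower and 25.3% differed either way. Ccnd1 was 3.79-fold lower (23.8 against 90.3 CPM), Cdkn1c 3.67-fold (227 against 832), Ccnd2 3.23-fold (256 against 829), Ccne1 2.81-fold (55.5 against 155.7) and Ccne2 2.20-fold (30.3 against 66.6). Only plate 7B held enough mesothelial cells (18) for ratios of its own, and these were 0.169 for Ccnd1, 0.225 for Cdkn1c, 0.232 for Ccnd2, 0.217 for Ccne1 and 0.442 for Ccne2. Ccnd3 did not pass, at 839 against 864 CPM, and Cdkn1a, Cdkn1b and Cdkn2c were below 10 CPM on both sides. Without plate 7B, or with Top2a-low cells alone, Ccne1 and Ccne2 did not pass and Cdkn2d did, as a lower member, while Ccnd1, Ccnd2 and Cdkn1c passed in both. Without plate 7B, however, the mesothelial side was 3 cells of plate 7A and 3 of the Nkx2.5 line. On plate 7A alone Ccnd1 (74.3 against 93.6 CPM) and Ccnd2 (468 against 836) were less than 2-fold lower, and Cdkn1c (379 against 864) was more. The 3 Nkx2.5 cells had 0.344 CPM of Ccnd1. Mycn (268 against 73.5 CPM) and Mycl (30.2 against 3.05 CPM) were higher, and Myc (12.4 against 79.01 CPM) and Ccng2 (5.72 against 31.1 CPM) were lower in mesothelial cells. They were among the 3 network genes higher and the 7 lower.

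Between the Nkx2.5 and Nkx3.2 mesenchyme no member passed 2-fold, beside 9.97% of 10147 genes. The nearest was Ccnd3, at 739.8 and 616 CPM on the Nkx2.5 plates and 1049.6 and 1102 on the Nkx3.2 plates (ratio 0.637), so that these plates did not overlap. Line and plate cannot be told apart here. Ccnd1, Ccnd2, Ccne1, Ccne2, Cdkn1c and Cdkn2d had ratios of 0.867 to 1.03. Nkx2.5 cells had fewer genes detected (median 5750 against 7202) at a higher depth, which moves with the shares of cells detected. Ccnd1 was detected in 46.2% of Nkx2.5 and 65.9% of Nkx3.2 cells, although its levels were 86.5 and 94.6 CPM. Cdkn1a, Cdkn1b and Cdkn2c were below 10 CPM on both sides.

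Within a state, cells were then divided by Top2a, a topoisomerase made from S phase to mitosis, as at least 100 CPM (high) or below 10 CPM (low). All 14 G2/M genes were higher in Top2a-high cells in each of the 4 comparisons, but of the 18 G1/S genes only 2, 3, 4 and 5 were (in Nkx2.5, Nkx3.2 and Prox1 mesenchyme and in other epithelial cells), so the division separated G2/M more than S phase. Ccne2 was the member that passed in all 4 comparisons. Ccne2 was higher in Top2a-high cells throughout, by 2.24-fold in Nkx2.5 mesenchyme (3.44 and 1.39 by plate), 4.04-fold in Nkx3.2 mesenchyme (4.62 and 3.06), 8.69-fold in Prox1 mesenchyme (7.72 and 10.4) and 3.42-fold in other epithelial cells (3.37 and 4.44). Ccne1 passed in Prox1 mesenchyme (2.26-fold, with 3.11 and 1.71 by plate) and in other epithelial cells (4.81-fold, with 4.66 and 5.01), and had ratios of 1.33 in Nkx2.5 and 1.57 in Nkx3.2 mesenchyme. The members past 2-fold numbered 2, 1, 2 and 4 in these 4 comparisons, and the share of all genes tested that passed was 17.1%, 9.60%, 23.1% and 15.9%. Genes that passed as higher made up 7.28%, 4.44%, 9.62% and 5.99%. With Mki67 in place of Top2a, Ccne2 passed 2-fold in the Prox1 mesenchyme alone (2.54), had ratios of 1.66 and 1.69 in the mesenchyme of the Cre lines, and was lower in Mki67-high epithelial cells (0.857).

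No D cyclin passed 2-fold with Top2a in any of the 4 comparisons. Ccnd1 had ratios of 0.847, 0.943, 1.19 and 1.24 in the order above, with 1.70 on plate 8A and 0.883 on plate 8B in the epithelium. Ccnd2 was lower in Top2a-high cells in each comparison, with ratios of 0.604, 0.786, 0.650 and 0.681. It was lower on each plate of each comparison, at 0.463 to 0.839, but reached 2-fold over no whole line. The cells between both Top2a limits were few (5, 15 and 12 in the Nkx2.5, Nkx3.2 and Prox1 mesenchyme) but had more of it: 1231, 973 and 1154 CPM, against 919, 859.8 and 794 CPM in Top2a-low cells. The 4 epithelial cells of this middle group had less, at 402 CPM against 639.9 in Top2a-low and 436 in Top2a-high cells. Ccnd1 was highest in the middle group, at 141.7, 106.8 and 206 CPM in the mesenchyme and 387 in the epithelium. Ccnd3 had ratios of 0.697, 0.896, 0.708 and 0.850.

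No inhibitor passed 2-fold in all 4 comparisons. With both plates together, Cdkn1c was lower and Cdkn1b higher in Top2a-high cells in each of them. Cdkn2d was 3.64-fold higher in Top2a-high cells of the Nkx2.5 mesenchyme (2.89 and 5.36 by plate) and 2.66-fold in other epithelial cells (3.23 and 2.10), but had ratios of 0.749 (0.469 and 1.54) and 0.957 (0.566 and 0.927) in the Nkx3.2 and Prox1 mesenchyme. Cdkn1a was the 1 member that passed lower, at 83.97 against 224 CPM in other epithelial cells, where 9.87% of all genes were lower, and it did so on plate 8A (ratio 0.218) and not on plate 8B (1.59). Neurog3 cells moved with that contrast, being 4 of 37 Top2a-high and 11 of 44 Top2a-low cells. Without them Cdkn1a was at 81.6 against 115.7 CPM, with 61.2 against 169.7 on plate 8A and 95.9 against 49.7 on plate 8B. Cdkn1c had ratios of 0.533 to 0.873 and Cdkn1b of 1.23 to 1.96, but plates differed in direction for Cdkn1c in the epithelium (1.21 and 0.418) and for Cdkn1b in Nkx3.2 mesenchyme (2.04 and 0.574). Cdkn2c, too low to count, was found in 3 of 43, 8 of 49, 1 of 24 and 3 of 37 Top2a-high cells in that order. Of the Top2a-low cells only 2, both of the Nkx3.2 line, held it.

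**Figure D4:**
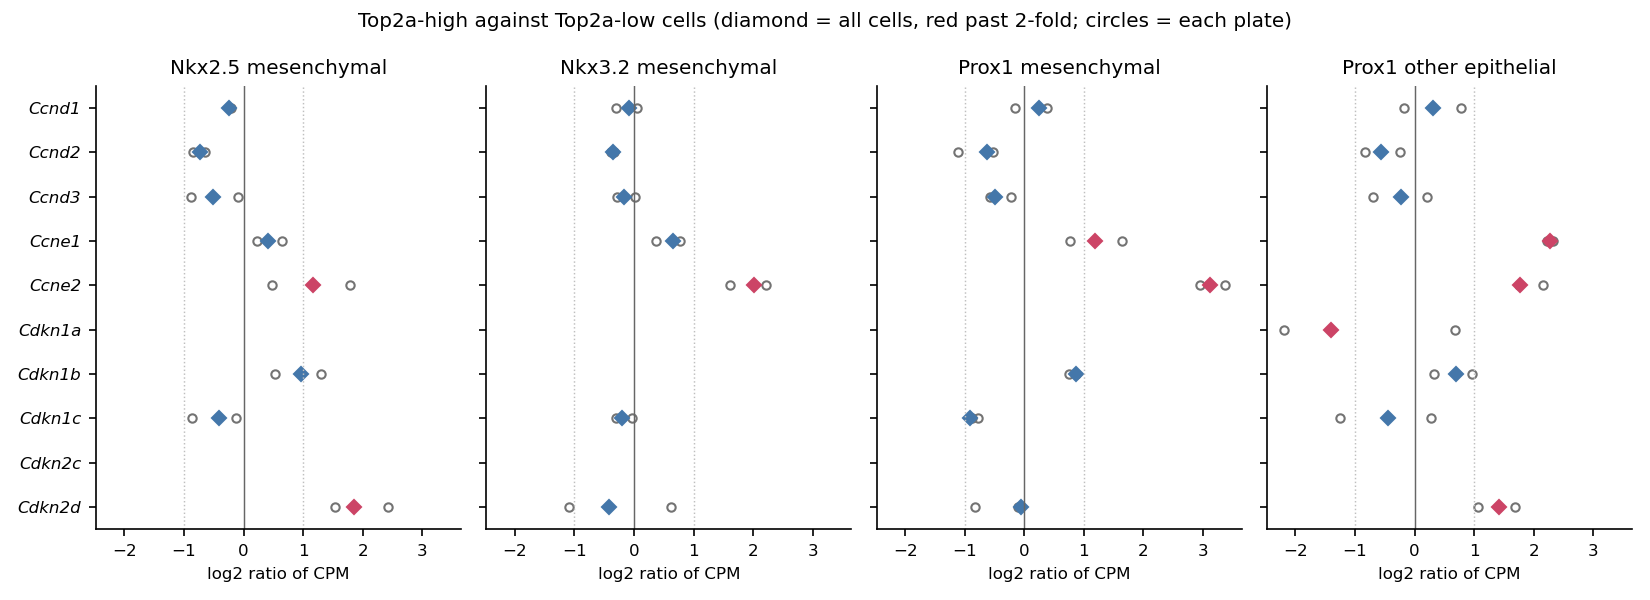
Log2 ratio of CPM in Top2a-high to Top2a-low cells (horizontal axis) for each gene above 10 CPM on 1 side, in 4 groups; diamonds are all cells, red past 2-fold, and circles are the plates. Ccne2 lies past 2-fold in all 4 groups, at ratios of 2.24 to 8.69, and Ccnd2 lies below equality on each plate.

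Among Top2a-low mesenchymal cells, those in the upper part of a G1/S score (mean log2(CPM + 1) of 18 replication genes, none of them a member) were compared with an equal number in the lower part, each part holding 1 of 3 equal shares of the cells. Both E cyclins were higher in the upper part in every line. Ccne1 was at 175.6 against 57.1 CPM in Nkx2.5 cells, 299 against 12.1 in Nkx3.2 cells and 155.5 against 17.7 in Prox1 cells, which are ratios of 3.07, 24.6 and 8.80. Ccne2 was at 107.5 against 9.53, 83.3 against 3.21 and 38.1 against 2.21 CPM, with ratios of 11.3, 25.97 and 17.3. Every plate with at least 5 cells a side had both in this direction, at 1.70-fold or more for Ccne1 and 9.42-fold or more for Ccne2. In the Nkx2.5 line 19 of 40 upper cells and 1 of 40 lower cells held Ccne2.

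The D cyclins differed among themselves in this division. Ccnd1 was 2.15-fold higher in the upper part in the Nkx3.2 line (2.06 and 2.32 by plate) and 7.40-fold in the Prox1 line, and had a ratio of 1.96 in the Nkx2.5 line (1.84 and 2.14). Ccnd2 had ratios of 1.63, 1.62 and 1.71, from 1.56 to 2.02 over the plates, and Ccnd3 of 1.04, 0.960 and 1.07. So Ccnd2 was lower in Top2a-high cells but higher in the upper G1/S part of the Top2a-low cells, by less than 2-fold over a line in both cases. The members past 2-fold numbered 2, 3 and 6 in Nkx2.5, Nkx3.2 and Prox1 cells, and the shares of all genes that passed were 27.1%, 17.7% and 38.6%. Higher genes alone made up 15.2%, 8.45% and 19.4%, and 19.2% of genes were lower in the Prox1 division. The 6 of the Prox1 line, with 13 cells a side, included 3 inhibitors that were lower. These were Cdkn1b (0.463), Cdkn2d (0.495) and Cdkn1a, whose 32.8 CPM in the lower part came from 1 cell. Cdkn2d was detected in only 2 cells of each part, and Cdkn1b in 10 upper and 8 lower cells. Cdkn1c had ratios of 0.830, 1.09 and 0.717 in the 3 lines, and Cdkn2c was below the level needed in each. Leaving out plate 8A, which gave 11 of the 13 lower cells, and dividing the other cells anew turned Ccnd1 (0.733) and Cdkn2d (1.12) round. The lower parts had fewer genes detected, with medians of 4678 against 5972, 6644 against 7298, and 5328 against 6493, and the share of this in the ratios was not tested.

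The genes whose levels followed a member most closely from cell to cell were named where the Spearman correlation, averaged over the mesenchymal cells of the 3 lines, reached 0.3. These are descriptions over cells that share plates and depth. For Ccne1 they included Pcna (0.54) and Lig1 (0.52), and for Ccne2 they were Rrm2 (0.55), Pcna (0.55) and Lig1 (0.53), all of which serve DNA synthesis. Ccnd2 was nearest to Mcm3, Mif and Ccne1 (0.40 each), Ccnd1 to Mif (0.38), Ccnd2 (0.35) and Ung (0.35), and Ccnd3 to Col1a1 (0.31). Cdkn1c was nearest to Ybx1 (0.55), Rab24 (0.39) and Gnas (0.36). No gene reached 0.3 for Cdkn1b or Cdkn2d, and Cdkn1a and Cdkn2c were in too few mesenchymal cells to be read. Between members, Ccne1 and Ccne2 had 0.28 in the Nkx2.5 mesenchyme, 0.57 in the Nkx3.2 mesenchyme, 0.63 in the Prox1 mesenchyme and 0.55 in other epithelial cells.

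The symbols correspond to single Ensembl genes, of which Cdkn1a lies on chromosome 17 (29090976 to 29100727, plus strand) and Cdkn1c on chromosome 7 (143458339 to 143461050, minus strand) in GENCODE M21 on GRCm38. Exons of Ccnd1, Ccnd2, Ccnd3, Ccne2, Cdkn1a and Cdkn1c overlap those of a gene on the opposite strand, LTO1, 9330179D12Rik and Gm43126, Bysl, Ints8, AC167363.2 and Gm44732 in that order. The protocol does not mark strand, so reads from the shared stretches cannot be told apart.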

How the data were processed

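Single GFP+ cells were sequenced by Smart-seq2 as 75-base single reads on a NextSeq 500, and reads were trimmed with Trim Galore 0.6.5 according to the submitters' notes. Transcript abundance came from kallisto on GRCm38, tximport summed it by gene, and the authors deposited the resulting estimated counts, 1 column per cell, with no scaling. Of values above 0, 34.1% were not whole to within 0.001, and they were used as deposited. Genes were named with GENCODE M21 (35945 of 36658 identifiers, the others holding 0.589% of counts). The annotation release used upstream is not given in the sources used here.

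The cell filters were those of the study's methods: 1000 genes and 100000 counts as minima, and 30% as the maximum share of the 13 mitochondrial genes. The 10 members and all lists were chosen with earlier results of these data known. States came from markers at 10 CPM or more: epithelial where epithelial outnumbered mesenchymal markers (8 each), endocrine with at least 4 of 18, mesothelial with at least 3 of 7, another type with at least 3 endothelial, blood or neural markers, and mesenchymal otherwise. This scoring was set after levels had been seen. A single cell lay at the endocrine limit, 4 at the mesothelial limit and 3 just below it. Clustering without the members, the network genes, the G1/S and G2/M lists and Top2a gave the same state for 540 of 549 cells (18 clusters, scanpy 1.11.5). The state markers were not removed, and the same marker lists named the clusters. This agreement is therefore not an independent check of the states. No doublet caller was run.

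Counts were summed over a group of cells and scaled to CPM, and exact Poisson limits were set on the sums. Ratios have an interval conditional on the summed counts, and shares an exact Clopper-Pearson interval, at 95%. A gene was tested where the higher side had at least 10 CPM and was called at a ratio of 2 either way, each side having at least 5 cells. Where a side had under 3 counts, 3 counts stood in for it. TPM used the longest coding transcript of GENCODE M21 or merged exons. The rule named the 10 members in every comparison, and of 54 network genes at most the 4 with the largest ratios. In the endocrine comparison Cdk4, Cdk2, Sesn2, Zmat3, Btg2 and Trp53 were named beyond that rule. Genes like a member had to be detected in at least 20% of mesenchymal cells of every line, and 1 such gene is not reported here. On simulated counts the procedure called most of the changed genes. The changes were 4-fold, in genes above the 10 CPM limit and with the cells of the Nkx3.2 Top2a comparison. Changes near 2-fold and groups as small as those of the Prox1 line were not simulated. The Poisson interval was checked on Poisson draws alone, which fixes its coverage, so its coverage for these counts is not known. The interval of the ratios was not checked. Alternatives were scaling by edgeR 4.0.16 (TMM), cell filters, single-cell means, depth, limits, states from clusters and leaving out each plate. Analyses used Python 3.11.15, numpy 2.4.6, pandas 2.3.3, scipy 1.17.1 and R 4.3.3.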

Additional observations from a re-analysis of the deposited data

Results flagged for a closer look

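Cdkn2d, the Ink4 inhibitor that binds Cdk4 and Cdk6, was higher in Top2a-high mesenchymal cells on both plates of the Nkx2.5 line and on neither plate of the Prox1 line. Its ratio of Top2a-high to Top2a-low CPM was 2.89 on plate 6A and 5.36 on plate 6B of the Nkx2.5 line, and 0.566 on plate 8A and 0.927 on plate 8B of the Prox1 line. Over the whole Prox1 line the ratio was 0.957 (95% counting interval 0.856 to 1.07), which was not past 2-fold and whose interval includes 1. The Nkx3.2 plates differed from each other, at 0.469 on plate 7A and 1.54 on plate 7B. The difference between the lines was not tested, since a line is 1 sample. Each line also had plates of its own, so line and plate cannot be told apart, and for the Prox1 line neither can library batch. The gene was detected in 53.5% of Top2a-high and 12.4% of Top2a-low cells of the Nkx2.5 line, and in 25% and 24.4% of those of the Prox1 line. With Mki67 in place of Top2a the Prox1 ratio was 1.39.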

How the results depend on the processing

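Of the alternative counts of members past 2-fold, 89.7% stayed within 1.5 times the main count. This compares numbers only and does not show that the same members passed. In the endocrine and mesothelial comparisons the members changed with Top2a-low cells alone, as given above. For Top2a, the counts were 2, 1, 2 and 4 in Nkx2.5, Nkx3.2 and Prox1 mesenchyme and in other epithelial cells. With a filter of 1 CPM the first 3 became 4, 2 and 4. With Mki67 in place of Top2a the 4 counts became 1, 0, 1 and 2. Leaving out 1 plate gave 1 to 3, 1 to 2 and 1 to 5 in the mesenchyme. Between the Nkx2.5 and Nkx3.2 lines a 1 CPM filter gave 2 members in place of none. In the G1/S division of the Prox1 line, the count of 6 became 3 without plate 8A and 5 without plate 8B. The share of all genes that passed was taken for the main settings only. These alternative counts therefore have no such share beside them, and their rise or fall cannot be read as particular to the members. Ratios past 2-fold that turned round were Cdkn1a for Top2a in epithelium without plate 8A (1.59, and 0.218 without plate 8B), Ccne2 there with Mki67 (0.857), and, in the Prox1 G1/S division, Ccnd1 without plate 8A (0.733, and at least 130.5 without plate 8B) and Cdkn2d without plate 8A (1.12, and at most 0.0238 without plate 8B), with the filter of 500 genes alone (1.06) and with the cells split at the median score (1.49). The cause was not tested. The cells were divided anew without a plate, and 3 counts stood in for 0 in both bounds. Of 960 member ratios under the other alternatives 899 kept their direction and whether they were called, and of 248 without 1 plate 197 did. Ratios that were not called, being under 2-fold or below 10 CPM, changed direction in 21 and 28 of these. The ratios listed above as turned round were called ones only. The comparisons of states kept Ccnd1 in each alternative, although without plate 7B the mesothelial one rested on 3 cells of each Cre line. Detection of Cdkn1b depended on depth, falling from 47.3% to 25.4% of Nkx2.5 mesenchymal cells when thinned to 100000 counts. The mesothelial comparison within the Nkx2.5 line, with 3 cells, was not run. No paired analysis was possible because replicate numbers only name cells in accession order, and groups on the same plate were compared plate by plate.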

Other observations

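The number of inhibitors at 10 CPM or more in a cell also differed between states. At least 3 of the 5 were held by 16 of 22 endocrine and 48 of 85 other epithelial cells, whereas 58% of Nkx2.5 and 53.5% of Nkx3.2 mesenchymal cells held exactly 1. In the Prox1 mesenchyme 33.8% held 1 and 51.9% held 2. For the D cyclins, all 3 were at 10 CPM or more in 60 of 85 other epithelial cells and in 1 of 22 endocrine cells.

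In the other epithelial cells, a division by Cpa1, a marker of the acinar tip, at 100 CPM (chosen after values had been seen) gave 654 against 293 CPM for Ccnd2, 297 against 194.4 for Ccnd1 and 160.9 against 327 for Cdkn1c in 55 cells above and 30 cells below. Ccnd3 was at 240.1 against 345 CPM and Ccne1 at 61.2 against 139.3. Plates were not separated for this division, and its bearing on the other results was not tested.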
